A study of Homo sapiens with 4 samples.

Results

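The nuclear subunits of respiratory complexes I to IV were examined in 4 RNA-seq libraries of prostate cancer cells. Members were taken by gene symbol and included NDUFA, NDUFB, NDUFC, NDUFS and NDUFV genes with a number, the UQCR subunits, SDHA to SDHD and the ubiquitously expressed COX subunits. The rule found 59 genes among the 35211 of the deposited table, and all 59 were among the 21731 genes with enough counts to test. Complex I contributed 36 of them, complex II 4, complex III 8 and complex IV 11, where NDUFA4 was placed with complex IV, the complex it is now assigned to despite its symbol. DU145 and PC3 are established human cell lines derived from prostate cancer. Both were transfected either with a negative control plasmid or with one that overexpresses the circular RNA circ0003553, and the sample titles carry the gene name RCAN3. Each of the 4 combinations was represented by 1 library of rRNA-depleted total RNA, so nothing separates a culture from its treatment. The fit on line and plasmid left 1 residual degree of freedom, which is how far the lines disagree in their plasmid ratio. Beside 13.4 prior ones, p-values rest mainly on this spread pooled over all genes. It is not a spread between replicate cultures, since none were replicated. Where 4 values are given in a row, they are those of DU145 with the control and then the circ0003553 plasmid, followed by PC3 in the same order.

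The respiratory chain of the inner mitochondrial membrane carries electrons from NADH through complex I, or from succinate through complex II, to ubiquinone, then through complex III and cytochrome c to complex IV, where oxygen is reduced. Complexes I, III and IV pump protons, and ATP synthase uses the gradient. Most subunits are encoded in the nucleus and imported, while mitochondrial DNA encodes a small set of hydrophobic subunits of complexes I, III and IV and of ATP synthase, so assembly needs transcripts from both genomes. NRF1, the ETS-family factor GABP (NRF2) and YY1 are known regulators of nuclear respiratory genes.

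Promoter sequence was available for 50 of the 59 members, from RefSeq on GRCh38.p14, as 250 bases before to 50 after the start of the gene. Both strands of these 300 bases were searched for the cores of the 3 factors. The NRF1 core GCGCANGCG was found in 16 members (32%), against 12.5% of 15793 other protein-coding genes. The ETS core CCGGAAGT was found in 8 (16%), against 6.95%, and the YY1 core AANATGGCG in 16 (32%), against 5.50%. At least 1 of the 3 cores was present in 30 members (60%) and in 22.0% of the other coding genes. The CCAAT box was present in 15 members (30% against 42.2%) and the TATA box TATAAA in 5 (10% against 12.4%). No core contains another, a match is a run of letters and not a binding site by itself, and the differences in share were not tested. The 4 promoters printed here, each ending before the first exon of the count table, were chosen by how their genes behaved. COX5B and NDUFB4 were among the members most above DU145 in PC3, NDUFA12 had the lowest fitted value with the circ0003553 plasmid, and UQCR11 was at nearly the same level in both lines. Sequences run 5′ to 3′ along the strand of the gene, and capitals mark the cores. Positions of cores count from the RefSeq start, which in these 4 genes lies beyond the end of the printed stretch.
COX5B, chr2:97645812-97646039, plus strand, ETS core 37 to 30 bases before the start: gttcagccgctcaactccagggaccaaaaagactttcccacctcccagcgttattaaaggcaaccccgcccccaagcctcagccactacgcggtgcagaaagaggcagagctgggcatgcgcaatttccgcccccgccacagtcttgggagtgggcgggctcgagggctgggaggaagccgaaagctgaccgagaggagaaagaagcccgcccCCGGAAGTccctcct
NDUFB4, chr3:120596086-120596308, plus strand, a palindromic NRF1 pair from 159 to 150 and another NRF1 core from 63 to 55 bases before the start: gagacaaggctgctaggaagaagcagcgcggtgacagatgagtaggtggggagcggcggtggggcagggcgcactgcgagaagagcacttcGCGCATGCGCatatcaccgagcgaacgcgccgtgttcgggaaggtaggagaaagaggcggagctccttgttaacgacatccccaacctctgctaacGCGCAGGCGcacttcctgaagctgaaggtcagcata
NDUFA12, chr12:95003771-95003947, minus strand, NRF1 core 116 to 108 bases before the start: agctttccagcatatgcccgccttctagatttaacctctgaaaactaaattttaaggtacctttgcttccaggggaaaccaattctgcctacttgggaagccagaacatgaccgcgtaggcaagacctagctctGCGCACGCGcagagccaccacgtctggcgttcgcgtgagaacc
UQCR11, chr19:1605491-1605712, minus strand, ETS core 117 to 110 bases before the start, with its NRF1 core outside the printed stretch: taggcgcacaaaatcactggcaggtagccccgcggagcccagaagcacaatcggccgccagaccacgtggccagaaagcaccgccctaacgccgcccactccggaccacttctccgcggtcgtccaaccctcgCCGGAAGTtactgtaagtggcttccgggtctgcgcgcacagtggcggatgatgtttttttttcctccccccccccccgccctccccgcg

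Values of members with and without each core are given as medians, without a test. The median log2 difference of PC3 over DU145 was 0.26 in the 16 members with an NRF1 core and 0.45 in the 34 without. It was 0.66 in the 8 with an ETS core and 0.37 in the 42 without, and 0.34 and 0.45 for the YY1 core. In DU145 the median log2 ratio of the circ0003553 library to the control library was -0.21 with an NRF1 core and -0.07 without. It was -0.16 and -0.08 for the ETS core and ran the other way for the YY1 core, at -0.00 with it and -0.13 without. In PC3 the medians with and without were -0.05 and -0.08 for NRF1, -0.11 and -0.05 for ETS and -0.02 and -0.09 for YY1.

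Library totals ranged from 33438509 to 39488890 counts, and member counts from 155 to 61782 per library. Of counts from 1 to 20, between 70.3% and 75.3% were even in each library, as counting read pairs as 2 would give. Whether that was done is not stated, so 95% intervals of single-library ratios below are exact conditional binomial intervals from halved counts and cover counting error only. RCAN3 had 639, 816, 1212 and 3798 counts, with a fitted log2 fold change of 0.95 ± 0.16 (SE) with the circ0003553 plasmid (edgeR's quasi-likelihood test, adjusted p = 0.0148). Circular and linear transcripts of RCAN3 are not told apart in a count per gene. Epithelial markers differed between the lines by edgeR's quasi-likelihood test. In PC3, 4 of 5 were called lower (80%, against 32.9% of all tested genes) and none higher (against 33.1%). The keratins KRT8 and KRT18 had 9902 counts or more in each library but were 5.78-fold and 3.92-fold lower in PC3. EPCAM was 1.34-fold lower, and the cadherin CDH1 was at 4821, 2478, 84 and 108 counts. Leukocyte markers (3 of 4 found) summed to 17, 23, 10 and 14 counts, with PTPRC at 0 in 3 libraries. Endothelial markers (3 of 3) summed to 18, 32, 588 and 595, nearly all PECAM1 in PC3, where VWF was at 0. Fibroblast markers (4 of 4) summed to 220, 138, 1167 and 1537, nearly all COL1A1, with DCN at 0 in both DU145 libraries and at 2 in both PC3 libraries. The part of these marker differences and of such cells in the differences between lines was not tested.

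Levels between subunits, compared per length as the deposited RPKM, spanned a wide range, the highest being from 349 to 1318 times the lowest within a library. The highest was NDUFS5, a small accessory subunit on the intermembrane-space face of complex I, encoded on chromosome 1 (39026318 to 39034636, plus strand, hg38). Its RPKM was 769, 638, 2970 and 2855, so both PC3 libraries lay above both DU145 libraries. NDUFS5 alone made up 26.8%, 25.1%, 47.8% and 48.5% of the summed RPKM of the members, and held ranks 43, 55, 18 and 19 among the 21731 tested genes.

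The lowest complex I member by mean RPKM was NDUFA9, an accessory subunit beside the quinone channel, at 2.12, 2.20, 2.25 and 2.51. RPKM divides by the listed gene length, 10391 bases for NDUFA9, 14160 for SDHC and 548 for NDUFS5, so these rankings depend on it. By counts NDUFC1 (202, 169, 155 and 195) was below NDUFA9 (838, 832, 783 and 1028). SDHD (854, 675, 640 and 715 counts) was likewise below SDHC. The RPKM of NDUFA9 was nearly flat over the 4 libraries and sat at the 48.2 percentile of all tested genes, whereas 30 of the 59 members were above 90 on that scale. In complex II the flavoprotein SDHA was highest, at 35.9, 37.8, 30.5 and 26.5 RPKM. The membrane anchor SDHC was lowest, at 6.88, 6.32, 2.73 and 2.64. In complex III the hinge protein UQCRH was highest, at 206, 149.7, 477 and 375, and the Rieske iron-sulfur protein UQCRFS1 had the lowest mean, at 9.08, 8.14, 7.21 and 7.08. In both DU145 libraries the core protein UQCRC2 was lower than UQCRFS1, at 6.83 and 6.58. In complex IV COX6C had the highest mean, at 97.9, 91.4, 274 and 259, although COX4I1 (104) and COX7C (94.3) were above it in the DU145 circ0003553 library. NDUFA4 was lowest, at 4.21, 2.81, 5.99 and 6.27.

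Summed by complex, the PC3 libraries were above the DU145 libraries in complexes I, III and IV. Complex II summed to 64.9, 64.6, 66.1 and 61.2 RPKM and was nearly level across the libraries. Within it SDHB was higher in PC3 (13.2, 13.1, 25.3 and 24.8), while SDHA and SDHC were lower. The complex II share of counts was lower in PC3, at 0.0453%, 0.0457%, 0.0375% and 0.0339%. Complex III summed to 393, 325, 729.8 and 639.5, of which UQCRH held 206, 149.7, 477 and 375. Complex IV summed to 541, 503, 1106 and 1057. In controls the PC3 sum was 2.04 times that of DU145 for complex IV and 1.85 times for complex III. Complex I was 2.31 times higher with NDUFS5 and 1.22 times without it. Within complex I without NDUFS5, the accessory subunits of the membrane arm were 1.63 times higher in the PC3 control, those of the peripheral arm 0.933 times and the 7 core subunits, which hold the flavin and the iron-sulfur clusters, 0.763 times. These sums are ratios of single libraries with no test. The order of the 59 levels was close in all pairs of libraries, with Spearman's rho from 0.92 between lines to 0.997 between the PC3 libraries, across genes that are not independent replicates.

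**Figure D1:**
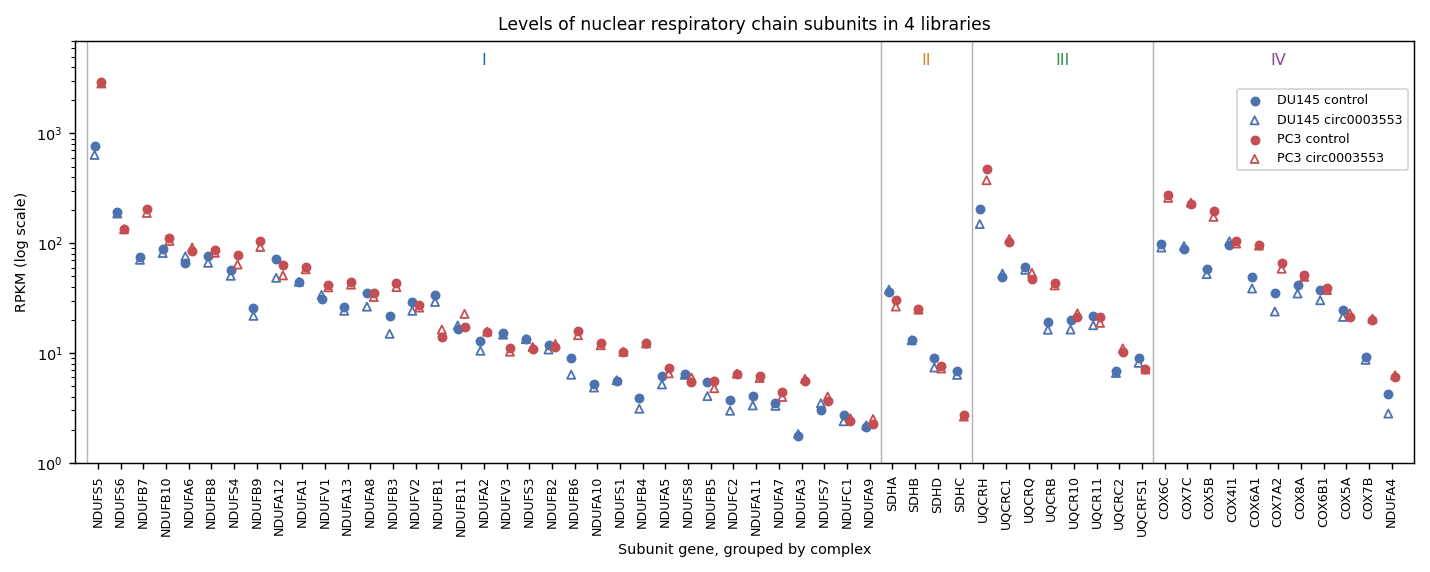
Deposited RPKM of 58 of the subunits on a log axis, grouped by complex and ordered by mean level, with filled circles for control and open triangles for circ0003553 libraries and 1 library per symbol. NDUFS5 stands above every other member in all 4 libraries, and the PC3 symbols of COX5B, COX6C, NDUFB4 and NDUFB9 lie above those of DU145, whereas SDHC shows the opposite order.

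With the circ0003553 plasmid, most subunit transcripts were slightly below their control library in each line, and none passed the test across lines. In DU145, 43 of 59 members (72.9%) had a TMM-scaled ratio below 1, against 49.2% of all genes with at least 50 counts, and the median log2 ratio was -0.11. In PC3 it was 41 of 59 (69.5%, against 49.9%), with a median of -0.08. In both lines 34 members were below 1, 9 were above 1 in both, and 16 went opposite ways. The log2 ratios of the lines, which come from different libraries, had a Pearson r of 0.45 and a Spearman rho of 0.40 across the 59 genes, given as a description because genes of 1 library share its depth and composition. In bulk RNA, fewer cells carrying a transcript and less of it per cell cannot be told apart.

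No member was 1.5-fold apart in either line. Of all genes with at least 50 counts, 4.72% were 1.5-fold higher and 5.04% lower in DU145, and 3.69% and 2.63% in PC3. At a factor of 5/4, 8 members were lower in DU145 (13.6%, against 14% of all genes) and none higher (against 13.3%). In PC3 at the same factor, 2 were lower (3.39%, against 8.9%) and 1 was higher (1.69%, against 10.1%). The share of members lower by that factor in DU145 was thus near the background, and the other shares were below it.

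By edgeR's quasi-likelihood test with the cell line as a block, 0 of 59 members passed an adjusted p of 0.05 for the plasmid, against 0.465% of all tested genes. Without adjustment, 9 of 59 members were under 0.05, as were 1929 of the 21731 genes. DESeq2 called 1 member, UQCRH. The share it called over all genes was not taken, so this count has no background beside it. The lowest fitted value belonged to NDUFA12, an accessory subunit of the peripheral arm of complex I, encoded on chromosome 12 (94897055 to 95003770, minus strand). Its counts were 5011, 3205, 3836 and 3650, and its RPKM 72.6, 48.4, 63.2 and 50.9, so each circ0003553 library was below both controls. The ratio was 0.687 in DU145 (95% interval 0.645 to 0.732) and 0.792 in PC3 (0.743 to 0.845), and the fitted log2 fold change was -0.44 ± 0.10 (SE, 4 libraries; adjusted p = 0.0874, edgeR's quasi-likelihood test).

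UQCRH, which docks cytochrome c1 in complex III, is encoded on chromosome 1 (46303631 to 46316776, plus strand). Its counts were 11046, 7683, 22435 and 20864. The plasmid ratio was 0.747 in DU145 (0.717 to 0.779) and 0.774 in PC3 (0.754 to 0.795), of similar size although PC3 had 2.48 times the TMM-scaled level of DU145 among controls. The fitted log2 fold change was -0.39 ± 0.10 (SE; adjusted p = 0.124 with edgeR's quasi-likelihood test and 0.00254 with DESeq2, at -0.40). UQCRHL, an intronless copy that could share its reads, had 1250, 858, 1766 and 1494 counts and a fitted log2 fold change of -0.47 ± 0.11 (SE; adjusted p = 0.0860, edgeR's quasi-likelihood test).

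The other lowest members were 3 membrane-arm accessory subunits of complex I and 1 subunit of complex IV. COX7A2, the ubiquitous form of a small complex IV subunit, had 2583, 1673, 4240 and 4450 counts, with ratios of 0.696 in DU145 (0.637 to 0.760) and 0.874 in PC3 (0.823 to 0.928). NDUFB3 had 915, 602, 1605 and 1736 counts and ratios of 0.707 and 0.901. NDUFB6 had 479, 321, 740 and 796 counts and ratios of 0.720 and 0.896. NDUFB5 had 1218, 866, 1101 and 1107 counts and ratios of 0.764 and 0.837. In all 4 genes the distance from the control was larger in DU145 than in PC3. Fitted log2 values were -0.36 for COX7A2, -0.32 for NDUFB5 and NDUFB3 and -0.30 for NDUFB6, with adjusted p of 0.273, 0.371, 0.435 and 0.527 in that order (edgeR's quasi-likelihood test). NDUFA4 and NDUFA8, the latter a twin-cysteine protein of the intermembrane space, completed the 8 members past the factor of 5/4 in DU145, at 0.686 and 0.779. NDUFA4 was at 1.03 in PC3, where its interval of 0.893 to 1.19 includes 1.

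At the upper end stood NDUFB11, an X-linked accessory subunit of the membrane arm, with 886, 921, 814 and 1273 counts. Its PC3 circ0003553 library was above the other 3. The ratio was 1.12 in DU145 (0.979 to 1.28) and 1.30 in PC3 (1.15 to 1.48), and the fitted log2 fold change 0.27 ± 0.12 (SE; adjusted p = 0.510, edgeR's quasi-likelihood test). NDUFB11 shares 44.9% of its exon bases with RBM10. NDUFS7, the core subunit beside the last iron-sulfur cluster before ubiquinone, had ratios of 1.18 and 1.08. NDUFA6, a LYR-motif subunit that binds an acyl carrier protein, had 1.18 and 1.06. NDUFA9, UQCRC1 and COX7C followed, with fitted log2 values of 0.11, 0.10 and 0.07.

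By complex, fitted log2 values for the plasmid had medians of -0.09 in complexes I and III, -0.07 in complex II and -0.14 in complex IV, beside 0.00 over all genes. Within complex I the 7 core subunits had a median of 0.03 with 1 of 7 below 0 (NDUFV2), the 9 peripheral accessory subunits -0.11 with 7 below 0, and the 20 membrane-arm accessory subunits -0.12 with 17 below 0. The difference between these classes was not tested. Gene length, as listed in the deposited table and not that of a single transcript, moved with the ratios in DU145. Members up to 1500 bases long had a median log2 ratio of -0.15 there (21 genes) and longer members -0.08 (38 genes), while among all genes with a log2 CPM of at least 4 the medians were -0.01 (555 genes) and 0.03 (7634 genes). In PC3 the members' medians were -0.08 and -0.06, beside -0.06 and -0.00 for all such genes. The part of length in these ratios was not tested.

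**Figure D2:**
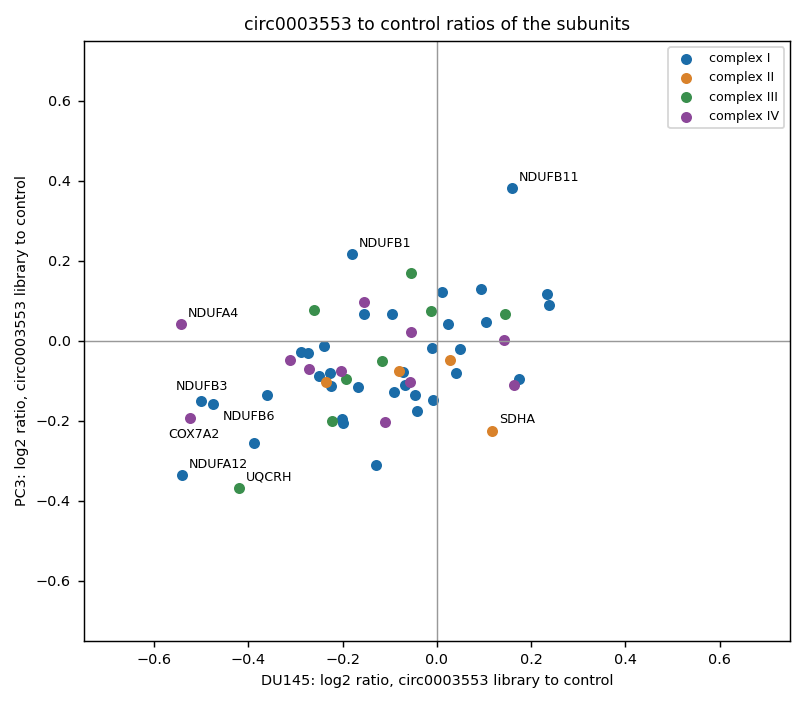
Log2 ratio of the circ0003553 library to the control library in PC3 (vertical axis) against DU145 (horizontal axis), TMM-scaled, 1 point for each of 58 subunits, coloured by complex. The lower left quadrant holds 34 of 58 points, among them NDUFA12 and UQCRH, the 2 members lower by a factor of 5/4 in both lines, and NDUFB11 is the point farthest to the upper right.

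Between the lines the differences were larger and mostly toward PC3. By the same fit with plasmid as a covariate, all but 17 of 59 members differed (71.2%, against 66% of all tested genes), and the share was near the background. Of these, 36 were higher in PC3 (61.0%, against 33.1%) and 6 lower (10.2%, against 32.9%). The median log2 difference was 0.40, beside 0.00 over all genes. Controls alone gave a median of 0.44 and circ0003553 libraries alone 0.39. With library totals in place of TMM factors, the median over all genes shifted to -0.11 in the controls and that of the members to 0.34. The 4 libraries are 2 cultures of each line with different plasmids, so line, culture and library cannot be told apart.

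NDUFS5 and NDUFB9 differed most. NDUFS5 had 16027, 12742, 54427 and 61782 counts, and a log2 fold change of 2.13 ± 0.11 (SE; adjusted p = 3.04e-10, edgeR's quasi-likelihood test), a 4.37-fold difference. NDUFB9, a LYR-motif subunit of the membrane arm, had 2579, 2090, 9233 and 9606 counts and the same 4.37-fold difference (adjusted p = 1.07e-10, edgeR's quasi-likelihood test). In both genes every PC3 library was above every DU145 library.

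NDUFB4 and NDUFA3, further membrane-arm accessory subunits, followed in complex I. NDUFB4 had 278, 214, 774 and 910 counts (log2 1.89 ± 0.14, SE) and NDUFA3 165, 165, 458 and 568 (1.73 ± 0.16). In complex IV, COX5B, a zinc-binding subunit on the matrix side, had 3187, 2750, 9490 and 9902 counts (1.82 ± 0.10). The twin-cysteine subunit NDUFB7 was at 1.50, NDUFA10, a kinase-like accessory subunit, at 1.32, and NDUFB3 at 1.27. COX6C was at 1.56 and COX7C at 1.42, the latter with 88.0, 94.3, 230.1 and 234 RPKM. In complex III UQCRH was at 1.34 and UQCRB, known as the ubiquinone-binding protein, at 1.33. All 12 of these members had both PC3 libraries above both DU145 libraries.

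The 6 members lower in PC3 came from complexes I and II. SDHC, which anchors complex II and helps bind its heme, is encoded on chromosome 1 (161314257 to 161375340, plus strand). It had 3705, 3264, 1294 and 1474 counts and a log2 fold change of -1.23 ± 0.10 (SE; adjusted p = 5.62e-08, edgeR's quasi-likelihood test), 2.34-fold lower. Both PC3 libraries were below both DU145 libraries. NDUFB1, a small membrane-arm subunit on chromosome 14, had 2934, 2410, 1048 and 1462 counts (-0.99 ± 0.12, SE).

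Smaller differences in that direction were found for NDUFS6, a zinc-binding subunit of the peripheral arm, for NDUFV3, an accessory subunit of the flavoprotein part, and for SDHA. NDUFS6 had 193, 186, 134 and 134 RPKM (-0.43 ± 0.09, SE), NDUFV3 15.2, 14.7, 11.2 and 10.3 (-0.41 ± 0.10) and SDHA 11448, 11555, 8539 and 8772 counts (-0.30 ± 0.11). The difference of SDHA was not called by DESeq2 (adjusted p = 0.0591), and neither were the higher values of NDUFS7, UQCR10 and NDUFB11, at adjusted p of 0.173, 0.193 and 0.234.

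The complexes differed in how many members were called, described here without a test between them. Over all tested genes, 33.1% were called higher and 32.9% lower. Complex IV had 8 of 11 higher (72.7%), none lower and a median of 1.17. Of complex IV, COX5A, COX4I1 and COX6B1 were not called. Complex III had 5 of 8 higher (62.5%) and none lower (median 0.55), with UQCRFS1, UQCRQ and UQCR11 not called. Complex II had SDHB, the iron-sulfur subunit, higher (1236, 1173, 2079 and 2415 counts), SDHA and SDHC lower, and SDHD not called. That is 25% higher and 50% lower, of only 4 members. Complex I had 22 higher (61.1%), 4 lower (11.1%) and 10 not called. Its membrane-arm accessory subunits had 15 higher (75%) and 1 lower (5%) of 20 (median 0.82). Its peripheral accessory subunits had 4 higher (44.4%) and 2 lower (22.2%) of 9 (median 0.37), and 3 of its 7 core subunits (42.9%) were higher (median 0.08). The shares higher of the peripheral and core classes were nearer to that of all tested genes. Of the core, NDUFS1, which holds several iron-sulfur clusters, was at 0.93, NDUFV1, the NADH-binding flavoprotein, at 0.40 and NDUFS7 at 0.30.

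**Figure D3:**
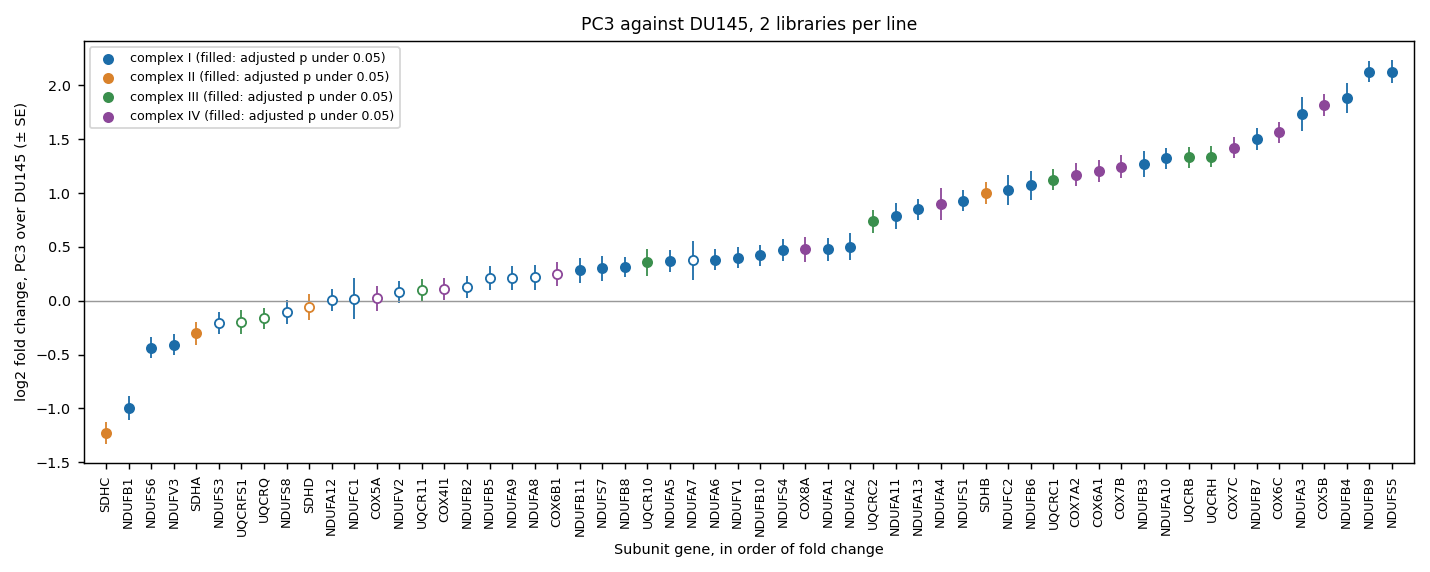
Fitted log2 fold change of PC3 over DU145 for 58 of the subunits in rising order, with SE bars and 2 libraries per line, filled where the adjusted p is under 0.05. All 11 complex IV points lie above 0, SDHC and NDUFB1 form the low end and NDUFS5 and NDUFB9 the high end.

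Subunit genes varied with their chromosomal neighbours. For each member the median log2 fold change of PC3 over DU145 was taken over tested genes within 2 Mb with a log2 CPM of at least 1, leaving out other members. Across the 59 members Pearson's r with this median was 0.71 and Spearman's rho 0.70, while across 14657 other genes they were 0.33 and 0.52. These are descriptions across genes, and neighbours of neighbouring members overlap. The members were also offset upward. Of the 59, 49 (83.1%) exceeded their neighbours' median, against 50.1% of other genes. The median difference from the neighbours was 0.50 over all 59 and 0.00 over the other genes. Those other genes are also the pool of neighbours, so their share and median difference were set near the middle by construction. They are not an independent background and were not matched to the members in level.

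SDHC (-1.23) had neighbours with a median of -0.75 and was lower still. On chromosome 5 SDHA and NDUFS6 had neighbours at -0.72 and were both lower in PC3. NDUFB4 (1.89) had neighbours at 1.36, NDUFA3 (1.73) at 0.99, NDUFS5 (2.13) at 0.94 and UQCRH (1.34) at 1.01. The 3 members on chromosome 8 were UQCRB, COX6C and NDUFB9, with 1.33, 1.56 and 2.13 beside neighbours at 1.19, 1.06 and 0.78. Other members stood far from their surroundings. NDUFA2 was 1.69 above its neighbours, NDUFB6 1.53, COX7A2 1.52 and COX5B 1.42, while NDUFB1 was 0.83 log2 units below its own (a difference of -0.83). DNA copy number was not measured here, and its part in these values was not tested.

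**Figure D4:**
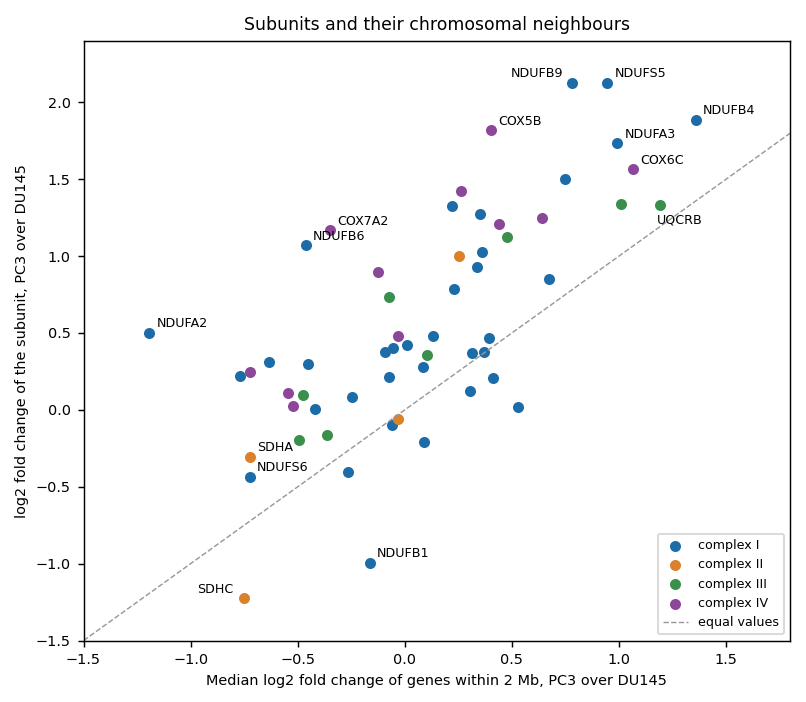
Fitted log2 fold change of PC3 over DU145 of 58 subunits (vertical axis) against the median of the tested genes within 2 Mb (horizontal axis), with a dashed line of equal values. Of 58 points 49 lie above the line, and SDHC is the lowest, at the lower left.

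The 4 other structural genes examined were the acyl carrier protein NDUFAB1, cytochrome c1 (CYC1), cytochrome c (CYCS) and the supercomplex factor COX7A2L. All 4 were higher in PC3 (100%, against 33.1% of all tested genes), with log2 fold changes of 0.89, 1.37, 0.72 and 0.63. In these and in every further gene list of the pathway, none was called for the plasmid by edgeR's quasi-likelihood test. Tissue-restricted isoforms were scarce. COX4I2, COX7A1, COX7B2 and COX8C had at most 13 counts in any library and were not tested, NDUFA4L2 had at most 93 and COX6B2 at most 27, neither of them called. UQCRHL was higher in PC3 (0.76).

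ATP synthase, which uses the gradient the chain builds, had 12 of 18 listed genes higher in PC3 (66.7%, against 33.1% of all tested genes), 1 lower (5.56%, against 32.9%) and 5 not called. ATP5G3, a copy of the rotor ring subunit, was highest at 1.54, and ATP5C1, the central stalk subunit gamma, was lower at -1.07. The others called were ATPIF1 (0.88), ATP5E (0.87), ATP5J2 (0.86), ATP5L (0.77), ATP5A1 (0.75), ATP5B (0.43), C14orf2 (0.41), ATP5G1 (0.33), ATP5F1 (0.31), ATP5I (0.30) and ATP5H (0.23). For the plasmid their median was -0.10 with 15 of 18 below 0, beside -0.09 for the 59 subunits of the chain, and ATP5J2 was lowest at -0.33 (adjusted p = 0.312, edgeR's quasi-likelihood test).

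The 13 mRNAs of mitochondrial DNA, the partners of these subunits from the other genome, took 4.68%, 3.66%, 5.52% and 4.93% of the counts. All 13 had a fitted plasmid value below 0, with a median of -0.25, and none was called. The lowest was MT-ND3 at -0.47 (32667, 20530, 46371 and 43152 counts; adjusted p = 0.0874, edgeR's quasi-likelihood test), followed by MT-ATP8 at -0.46. Median log2 ratios were -0.35 in DU145 and -0.18 in PC3. Between lines 7 were higher in PC3 (53.8%, against 33.1%) and none lower (against 32.9%). These were MT-ND6 (1.02), MT-ND5 (0.91), MT-ND3 (0.90), MT-CYB (0.61), MT-ND4 (0.48), MT-ND1 (0.46) and MT-CO1 (0.32).

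Of 21 assembly factors for complex IV, 10 were higher in PC3 (47.6%, against 33.1% of all tested genes) and 7 lower (33.3%, against 32.9%), the latter share near the background. Higher were COX16 (2.09), the copper chaperone COX17 (1.81), COA7 (1.31), PET100 (1.28), COX18 (0.99), COX20 (0.89), the translational activator TACO1 (0.67), COA5 (0.62), PET117 (0.53) and COA3 (0.50). Lower were COA6 (-1.23) and SCO1 (-1.08), both known for copper delivery, SURF1 (-0.92), the heme A enzymes COX15 (-0.71) and COX10 (-0.57), COA4 (-0.57) and LRPPRC (-0.48), which stabilises mitochondrial mRNAs. Of 16 for complex I, 5 were higher (31.2%) and 3 lower (18.8%), also near or below the background. ECSIT (1.15), TIMMDC1 (0.86), NDUFAF6 (0.64), COA1 (0.50) and FOXRED1 (0.39) were higher, and C17orf89 (-0.97), NDUFAF4 (-0.43) and NUBPL (-0.37) lower. Of 6 for complex III, BCS1L (0.77), TTC19 (0.69) and LYRM7 (0.55) were higher, a share of 50%. UQCC3 (-0.53) and UQCC2 (-0.36) were lower, a share of 33.3%. Of 4 for complex II, SDHAF3 was higher (1.02), a share of 25%.

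Among 16 tested regulators of respiratory genes, 6 were higher in PC3 (37.5%, against 33.1%) and 4 lower (25%, against 32.9%), shares near those of all tested genes. The coactivator PPARGC1B (1.46), the mitochondrial DNA packaging factor TFAM (1.32) and the rRNA methyltransferase TFB1M (1.03) were highest, with MTERF1 (0.55), TFB2M (0.50) and POLG2 (0.45) after them. PPRC1 (-1.04), POLG (-0.98), POLRMT (-0.37) and YY1 (-0.27) were lower. PPARGC1A, the related coactivator best known in muscle and brown fat, had 2, 0, 4 and 12 counts and was not tested. NRF1 had 701, 612, 618 and 737 counts and GABPA 2960, 2549, 2390 and 2816, and neither was called in either comparison. TFB2M had the highest fitted plasmid value of the list, 0.37 ± 0.13 (SE; adjusted p = 0.366, edgeR's quasi-likelihood test).

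Reads shared with other genes could alter the counts of some members. Exon bases were shared with another gene, on either strand, in 29 of 59, and in 11 the share was over 20%. The strand setting of the counting is not stated, so the effect of these overlaps on the counts is unknown. These 11 were NDUFS7 (49.1%), NDUFB8 (48.5%), NDUFB11 (44.9%), NDUFA1 (44.5%), NDUFB2 (35.9%), COX8A (34.5%), NDUFA7 (33.5%), NDUFV2 (28.4%), NDUFS3 (22.4%), NDUFA13 (21.0%) and UQCRQ (20.8%). The other members that shared bases, by 0.0835% to 19.8%, were COX4I1, NDUFB6, UQCRB, NDUFA6, UQCRFS1, SDHC, NDUFA3, NDUFA9, UQCR11, NDUFS1, NDUFA11, COX6A1, NDUFA2, SDHD, NDUFC2, NDUFC1, NDUFB9 and NDUFB3. In the 30 members clear of overlap, tested among genes without overlap, 19 were higher in PC3 and 5 lower. The shares called over all genes of that separate fit were not taken, so these counts have no background beside them. Named pseudogenes of 25 members were also listed, 46 in all, with totals of 3811, 3491, 2024 and 2531 counts. Their counts exceeded 10% of the parent's in 1 case, SDHA, whose copies SDHAP1, SDHAP2 and SDHAP3 had 3553, 3315, 1695 and 2204 counts in sum, up to 31.0% of SDHA, so its values are uncertain. Pseudogenes were found by a symbol ending in P and a number, which leaves out UQCRHL. Its 1250, 858, 1766 and 1494 counts stood beside 11046, 7683, 22435 and 20864 of UQCRH, whose values are uncertain as well.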

How the data were processed

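RNA was measured in 4 libraries, 1 per combination of line (DU145, PC3) and plasmid (control, circ0003553). Per the labels' protocols, total RNA was treated with DNase I, depleted of ribosomal RNA and made into stranded libraries with molecular identifiers. The authors deposited gene counts and RPKM, which equalled counts divided by length and library total to within a relative difference of 8.68e-14. Build hg38 and the tools edgeR 3.12.1, Subread 1.5.1 with featureCounts, and Trimmomatic 0.36 are listed in the submitters' processing notes. The sources used here do not state the aligner, the strand setting or how identifiers were used. Columns named NC were read as control and those named RCAN3 as circ0003553.

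All genes with enough counts were fitted with edgeR 4.0.16 (R 4.3.3; quasi-likelihood test, TMM factors 1.04, 1.01, 0.967 and 0.984, Benjamini-Hochberg adjustment over 21731 genes, threshold 0.05) on line and plasmid, with 1 residual and 13.4 prior degrees of freedom. No test of a line by plasmid interaction was possible, since the interaction takes the only residual degree of freedom and so serves as the error. Within a line, TMM-scaled ratios with exact conditional binomial (Clopper-Pearson) intervals were given without a test for genes with at least 50 counts. DESeq2 1.42.0, limma-voom (limma 3.58.1), other scalings, filters, count units and gene sets were alternatives. Named were members past a test (12 highest and lowest), the 6 highest and 6 lowest per comparison, the extremes of each complex, overlapping members and, per list, called genes or the 2 with the largest change. Members and lists were chosen with earlier results of these data known. Gene coordinates are those of the deposited table, and promoters come from RefSeq on GRCh38.p14. The values of 1 member and of some markers are not reported here or drawn in the figures, though counts and medians include them.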

Additional observations from a re-analysis of the deposited data

Results flagged for a closer look

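In 4 members the circ0003553 library lay above its control in one line and below it in the other, with 95% counting intervals from halved counts that did not include 1 in either line. The log2 ratio of NDUFV1, the NADH-binding subunit of complex I, was 0.17 in DU145 and -0.10 in PC3. That of COX4I1, the largest nuclear subunit of complex IV, was 0.16 in DU145 and -0.11 in PC3. For SDHA, the flavoprotein of complex II, it was 0.12 in DU145 and -0.23 in PC3, with the pseudogene counts given above. NDUFB1, of the membrane arm of complex I, had the opposite order, -0.18 in DU145 and 0.22 in PC3. With 1 library per group, the difference between lines was not tested for these genes.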

How the results depend on the processing

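Under the alternatives for the plasmid, the count of members called stayed at 0 in 8 of 9 settings, and DESeq2 called 1 lower. The shares called over all genes in the alternative fits, for the plasmid and between the lines, were not taken. Members 1.5-fold lower in DU145 numbered 0, but 8 at a factor of 5/4 and 1 with library totals, and in PC3 2 were lower and 1 higher at a factor of 5/4. Between lines, 36 members were higher, 33 to 36 under 8 alternatives, and 19 of the 30 that share no exon base, the only ones tested there. Line calls changed in 5 members. NDUFB11 (adjusted p = 0.0450, edgeR's quasi-likelihood test) lost its call in 7 settings, and NDUFS7, UQCR10 and SDHA did in some, while NDUFS3 gained one with library totals (adjusted p = 0.0308). By mean share of summed RPKM, complexes I to IV held 68.3%, 1.47%, 11.9% and 18.3%. Counts without length gave 49.4%, 5.96%, 17.4% and 27.3%, and leaving out NDUFS5 gave 45.9%, 2.50%, 20.3% and 31.2%. No result reversed. Leaving out NDUFS5, other neighbour windows (r of 0.74 at 1 Mb and 0.75 at 5 Mb) and leaving out members on chromosome 8 (r of 0.69) were chosen after seeing the data. No paired analysis was possible because the labels number no replicates, and the cell line served as the block. Without that block 0 members were called. Every member had at least 155 counts per library. With 1 library per group, the spread between cultures of a line was not measured.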
